A study of Mus musculus with 42 samples.

Results

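A set of 10 genes known for their timing in embryonic or adult tissue was followed here across myogenic precursors and satellite cells. The set holds the RNA-binding proteins Lin28a and Lin28b, the chromatin architectural proteins Hmga1 and Hmga2, the mRNA-binding proteins Igf2bp1, Igf2bp2 and Igf2bp3, and the nuclear factor I transcription factors Nfia, Nfib and Nfix. They were chosen by symbol and make up 10 of the 24466 genes in the RNA-seq count files. All 10 were listed in every library, and 8 of them passed the filter on low counts that preceded testing. Lin28a and Hmga1 did not.

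Lin28 proteins bind the precursors of let-7 microRNAs and keep them from maturing. Mature let-7 pairs through its seed with matches in the 3′ untranslated regions of its targets, among which Lin28a, Lin28b, Hmga2 and Igf2bp mRNAs are textbook examples, so that the embryonic genes and let-7 oppose each other. Nfi factors act in the opposite phase: Nfix is known for switching muscle progenitors from the embryonic to the fetal program, and Nfia and Nfib promote differentiation in several tissues.

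The study used iPax7 cells, mouse muscle precursors grown from embryonic stem cells that carry a doxycycline (Dox) inducible Pax7 transgene. RNA was sequenced from iPax7 cells kept in 0.75 µg/ml Dox (+Dox, 3 libraries), from iPax7 cells 3 days after Dox was withdrawn (-Dox, 2 libraries), and from satellite cells isolated from the muscle of Pax7-ZsGreen reporter mice, with the treatment label in vivo (3 libraries). All iPax7 libraries carry the same transgene, and the satellite cells are selected through Pax7 reporter activity. The age of the mice was not given in the sources used here. Chromatin data covered the same 3 states, iPax7 cells 12 and 24 hours after Dox withdrawal, iPax7 myotubes formed in 2% horse serum, and C2C12 cells, a mouse myoblast line, as myoblasts with no construct in their label, as stable lines carrying either Pax7-flag or a flag control, and as myotubes. The C2C12 myotubes were formed in 2% horse serum as well, and the C2C12 myoblasts and stable lines were grown in fetal bovine serum. The histone-mark peak lists used here were those of the +Dox and -Dox 3 day iPax7 cells and of the 2 stable C2C12 lines. Histone marks of iPax7 myotubes, also profiled in the study, were not analysed here.

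The libraries held 39010958 to 54674619 counts on genes, with the satellite-cell libraries lowest. Reads with more than 1 alignment were left uncounted, at 7.11% to 7.60% of the iPax7 libraries and 23.6% to 30.7% of the satellite-cell libraries. Pax7 had 11610 to 14130 normalized counts in +Dox, 220.6 and 269.5 in -Dox and 3926 to 8504 in satellite cells, so the induced gene followed its labels. Normalized counts are read counts scaled to the TMM effective library sizes. Pluripotency genes were near absent. Summed over 9 markers they reached at most 2.68 CPM in any library, and Pou5f1 and Nanog were at 0 in all 8. CPM is the read count as a rate of the same TMM effective library size, not of the library total. The satellite-cell libraries held other cell types' RNA as well. Summed over 6 endothelial markers they had 310.8 to 460.3 CPM against at most 3.54 in any iPax7 library, over 6 mesenchymal markers 1251 to 2318 against 87.6 to 266.4, over 7 blood markers 56.6 to 211.8 against 3.33 to 9.82, and over 4 Schwann cell markers 40.2 to 68.2 against at most 1.94. The 9 myogenic markers summed to 6077 to 8944 CPM in the same libraries. All 8 markers of dividing cells were called lower in -Dox and in satellite cells than in +Dox, from 1361 to 1681 CPM summed in +Dox to 125.9 and 134.7 in -Dox and 29.2 to 60.3 in satellite cells. The part of these differences in the results below was not tested. In bulk RNA, fewer cells that express a gene and less of its RNA per cell cannot be told apart.

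The let-7 family is shown first because its seed links the embryonic members. From RefSeq (GRCm38.p6), 11 mature mouse miRNAs of this family were taken, leaving out products of the opposite arm of each precursor. Of these, 10 share the seed GAGGUAG at bases 2 to 8. Only let-7j differs there. A few, 4 in number, are printed with the seed in capitals.
let-7a: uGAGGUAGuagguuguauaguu
let-7g: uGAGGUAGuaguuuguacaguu
miR-98: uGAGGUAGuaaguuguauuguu
let-7j: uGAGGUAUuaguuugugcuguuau

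The seed pairs with CTACCTC in the transcribed strand. The longest annotated 3′ untranslated region of each gene was searched for these 7 letters on that strand alone. Of 17619 genes with such a region, 9.05% held at least 1 match, and 20.2% of the 4145 genes whose region was at least 2 kb long did. Of the 10 members, 8 held one. Hmga2, Lin28b and Igf2bp1 each held 4, a number reached or passed by 9 genes in all. Lin28a held 2, Hmga1, Igf2bp2, Igf2bp3 and Nfia held 1 each, and Nfib, Nfix and the related Nfic held none, although the regions of Nfib and Nfix are 6621 and 3951 bases long. Per kb, Hmga2 held 1.33 matches and Nfia 0.131, beside 0.0767 over all genes. A match describes the letters only; whether let-7 acts on it was not measured.

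The 4 matches of Hmga2 lie within 3014 bases on the minus strand of chromosome 10 (mm9, NCBIM37). They are printed as transcribed, with the seed match in capitals, together with 1 each from Lin28b, Igf2bp1, Igf2bp3 and Nfia.
Hmga2, chr10:119801278-119801299, minus: gacattcaatttCTACCTCagc
Hmga2, chr10:119800041-119800062, minus: cactcctcaataCTACCTCtga
Hmga2, chr10:119799603-119799624, minus: atttgcaaggaaCTACCTCcac
Hmga2, chr10:119798745-119798766, minus: caaaacacactaCTACCTCtta
Lin28b, chr10:45100826-45100847, minus: cgggcgggaagtCTACCTCatg
Igf2bp1, chr11:95820669-95820690, minus: cagtgctattaaCTACCTCagc
Igf2bp3, chr6:49036784-49036805, minus: atttttactcaaCTACCTCagg
Nfia, chr4:97784612-97784633, plus: acaggagaagtgCTACCTCtga
The first Hmga2 match, which starts 58 bases into the region, is followed by an A, as are those shown of Lin28b, Igf2bp1 and Igf2bp3. The Nfia match lies 6698 bases into its region and is not followed by an A. Neither are the other matches of Hmga2 and Lin28b, the last of Igf2bp1 and that of Hmga1. The remaining matches of Igf2bp1 and those of Lin28a and Igf2bp2 are.

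Across the 3 groups, the embryonic members Hmga2, Igf2bp1 and Igf2bp3 were abundant in iPax7 cells and nearly absent from satellite cells, and the Nfi members were 13.3- to 20.8-fold more abundant in satellite cells than in +Dox. Igf2bp2 overlapped between all 3 groups and passed no test. After 3 days without Dox, Hmga2 fell and no other member passed the test. Tests used edgeR's quasi-likelihood test over 14836 genes with Benjamini-Hochberg adjustment, and a gene was called at an adjusted p under 0.05. Nothing states that the libraries of a group came from separate cultures or animals, so the p-values measure the spread between these libraries. The 3 comparisons share libraries pairwise and are not independent.

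**Figure D1:**
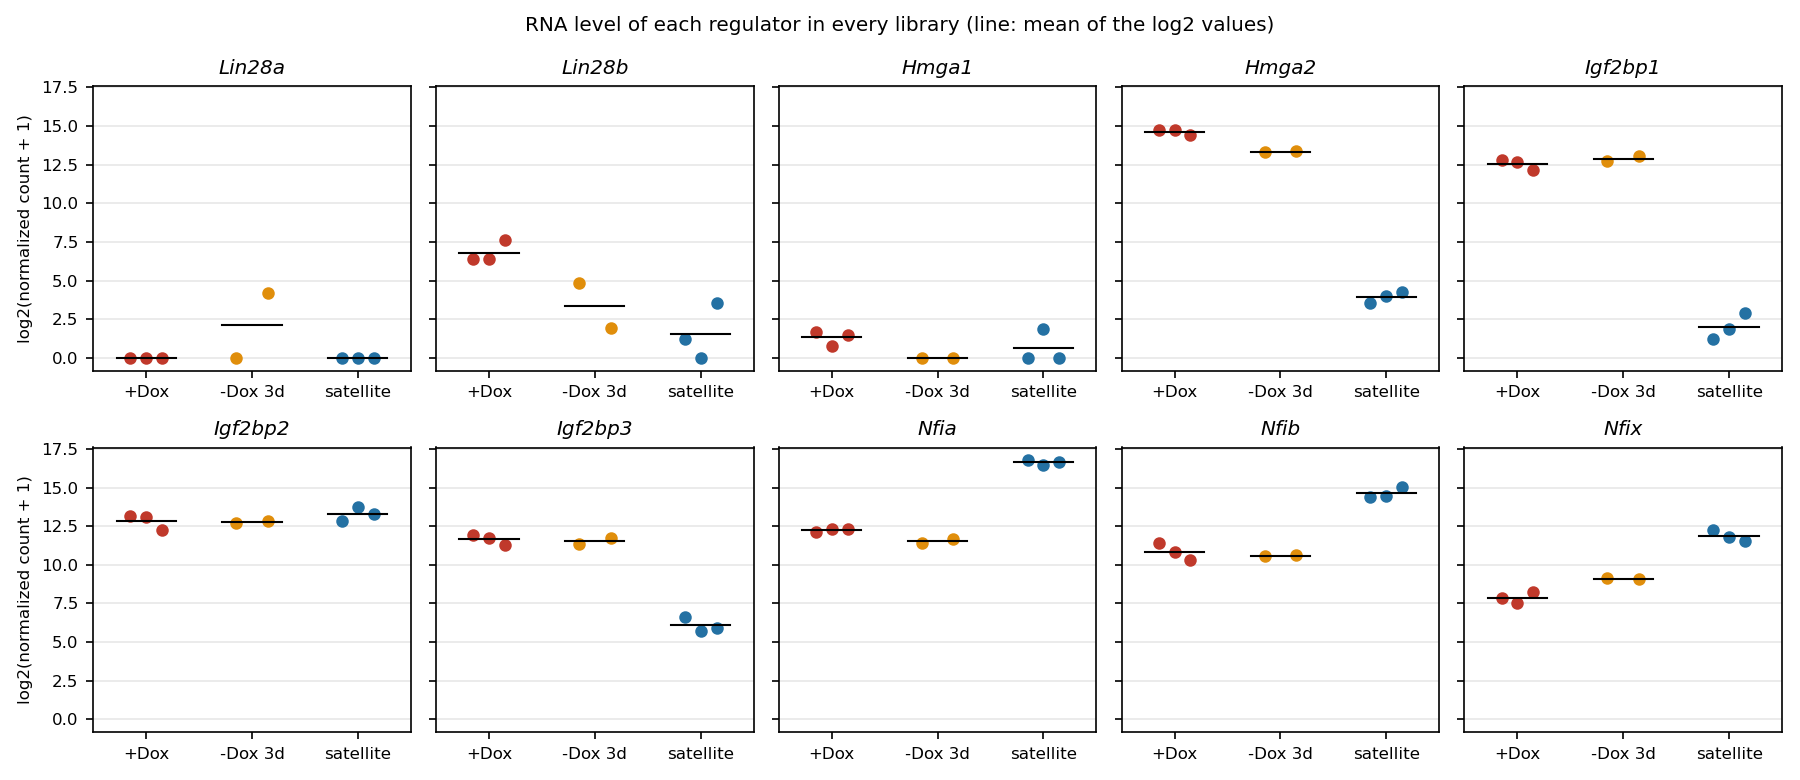
RNA level of each regulator as log2(normalized count + 1) in the 3 +Dox, 2 -Dox 3 day and 3 satellite-cell libraries, 1 point a library, with a line at the mean of the log2 values. Hmga2, Igf2bp1 and Igf2bp3 drop from about 2460 or more normalized counts in every iPax7 library to under 100 in satellite cells, Nfia, Nfib and Nfix lie higher there than in every iPax7 library, and Igf2bp2 overlaps between the groups.

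Of all tested genes, 7.7% were called between -Dox and +Dox, 4.66% higher and 3.04% lower in -Dox. Of the 8 members tested, 1 was called, Hmga2, and it was lower. Between satellite cells and +Dox, 44.9% of all tested genes were called, 25.1% higher and 19.8% lower in satellite cells. Of the 8 members, 7 were called: Nfia, Nfib and Nfix higher, Lin28b, Hmga2, Igf2bp1 and Igf2bp3 lower. Between satellite cells and -Dox, 39% were called, 20.9% higher and 18.1% lower. Of the 8 members, 6 were called: the same 3 Nfi genes higher, and Hmga2, Igf2bp1 and Igf2bp3 lower. These satellite-cell comparisons called a large share of all genes, so the members are described below by the sizes of their changes. The median log2 fold change of all tested genes was 0.00 for -Dox against +Dox, 0.17 for satellite cells against +Dox and 0.23 for satellite cells against -Dox.

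**Figure D2:**
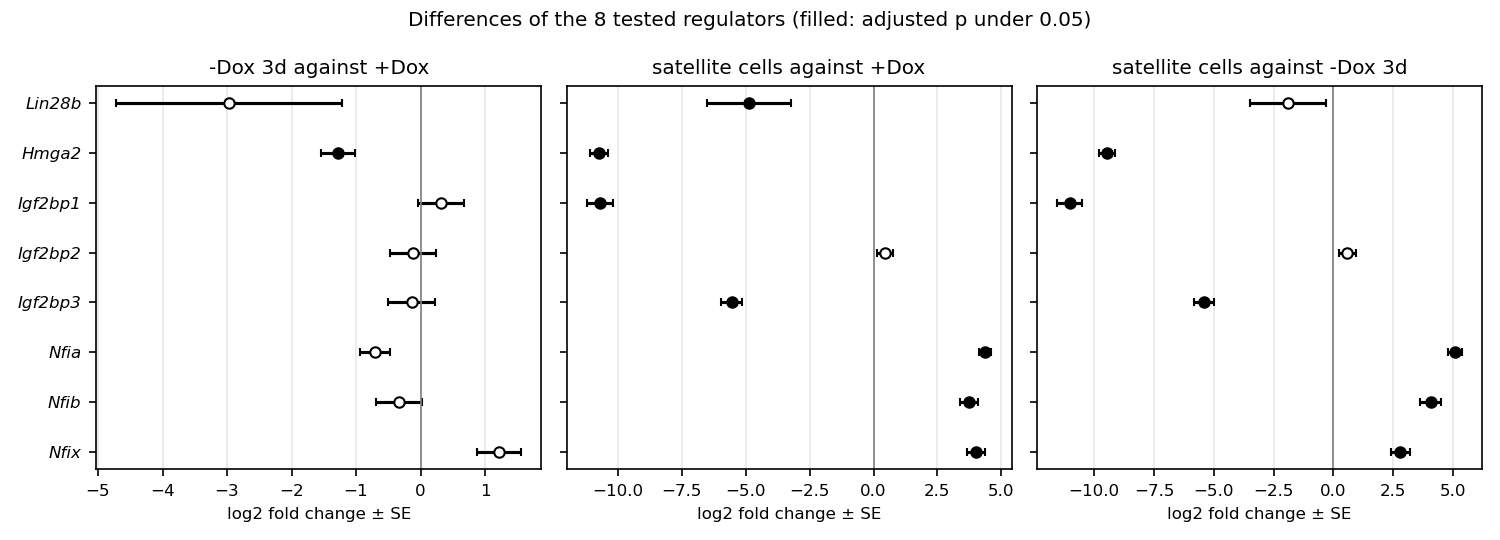
Log2 fold change of the 8 tested regulators in each comparison, with bars of 1 standard error either side and filled points for an adjusted p under 0.05; the horizontal scale of the first panel differs from that of the others. Hmga2 and Igf2bp1 lie below -10 in satellite cells against +Dox, the Nfi members lie between 3.73 and 4.38 there, and Igf2bp2 lies between -0.12 and 0.58 in all 3 comparisons.

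Lin28a (chromosome 4, 133559245 to 133574756, minus strand) had no read in any +Dox or satellite-cell library and in 1 of the 2 -Dox libraries. The remaining -Dox library had 19 reads, or 17.5 normalized counts. No read in a library allows up to 2.73 normalized counts in +Dox and up to 4.02 in satellite cells, taking 3 reads as the limit. No comparison of Lin28a was tested.

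Lin28b (chromosome 10, 45096426 to 45206201, minus strand), the second let-7 blocker, was low but present in +Dox, with 81.9, 82.9 and 194 normalized counts. The -Dox libraries had 27.6 and 2.77, and the satellite-cell libraries had 1.32, 0 and 10.6. Every +Dox library was above every library of the other groups, and -Dox and satellite cells overlapped. Lin28b was 29.3-fold lower in satellite cells than in +Dox (log2 fold change -4.87, standard error 1.64, adjusted p = 0.0365 from edgeR). This call rests on few reads, 9 over the 3 satellite-cell libraries, and it was lost without +Dox library 1, 2 or 3 (edgeR adjusted p = 0.0578, 0.0595 and 0.0937) and without satellite-cell library 1 or 2 (0.0799 and 0.0606). The difference between -Dox and +Dox did not pass the test, at a log2 fold change of -2.97 (standard error 1.75, edgeR adjusted p = 0.379), nor did that between satellite cells and -Dox (-1.91, standard error 1.58, edgeR adjusted p = 0.36).

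Few genes of the wider let-7 machinery were called. Of 13 genes that process let-7 or work with Lin28 to block it, none was called between -Dox and +Dox, against 7.7% of all tested genes, and 2 were higher and 2 lower in each satellite-cell comparison. That is 30.8% of the list, beside 44.9% of all genes against +Dox and 39% against -Dox. Against +Dox, the Argonaute gene Ago2 was higher in satellite cells (log2 fold change 1.60, standard error 0.42, edgeR adjusted p = 0.0124), and so was Dis3l2, the exonuclease that degrades let-7 precursors tailed through Lin28 (1.41, standard error 0.30, edgeR adjusted p = 0.00459). Against -Dox, Trim71, a stem cell ubiquitin ligase that is itself a let-7 target, was lower (-5.20, standard error 1.44, edgeR adjusted p = 0.0183), with 646.1 and 803.1 normalized counts in -Dox and 0, 55.0 and 3.96 in satellite cells. Tarbp2, a partner of Dicer, was lower against -Dox (-1.22, standard error 0.34, edgeR adjusted p = 0.0194). The list's median log2 fold change was -0.29, 0.34 and 0.53 in the order of the comparisons above. Mature let-7 was not measured. The count files hold 12 let-7 family loci, of which 9 had no read in any library and the rest at most 7 reads in a library.

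Hmga1 (chromosome 17, 27693565 to 27700619, plus strand) was listed with 2.25, 0.741 and 1.82 normalized counts in +Dox, 0 in both -Dox libraries, and 0, 2.68 and 0 in satellite cells. This level is uncertain, since reads with more than 1 alignment were left uncounted. The start sites of Hmga1 carried accessible chromatin in all 10 ATAC-seq peak lists, with up to 36.9-fold enrichment 24 hours after Dox withdrawal. No comparison of Hmga1 was tested.

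Hmga2 (chromosome 10, 119798331 to 119913525, minus strand) bends DNA and is typical of embryonic and self-renewing cells. It was the most abundant member in +Dox, with 26828, 27080 and 21982 normalized counts. The -Dox libraries had 10079 and 10739, and the satellite-cell libraries had 10.5, 14.7 and 18.5, from 33 reads in all. The 3 groups were fully separate. Hmga2 was 2.43-fold lower in -Dox than in +Dox (log2 fold change -1.28, standard error 0.27, adjusted p = 0.0186 from edgeR). That call was lost without +Dox library 1 or 2 (edgeR adjusted p = 0.0633 and 0.0796) and without -Dox library 1 or 2 (0.203 and 0.169), while the log2 fold change stayed between -1.37 and -1.22. Hmga2 was 1721-fold lower in satellite cells than in +Dox (log2 fold change -10.75, standard error 0.35, edgeR adjusted p = 9.72e-07) and 708.1-fold lower than in -Dox (-9.47, standard error 0.35, edgeR adjusted p = 3.35e-06). Per kb of exon, Hmga2 stood above 95.9% of 19020 genes in +Dox and above 31.9% in satellite cells. Stretches of 50 bases in annotated coding transcripts were compared between genes. None of Hmga2, the Lin28 genes, the Igf2bp genes, Nfia or Nfib was shared with a coding transcript of another gene. Pseudogenes and noncoding genes were not searched. The separately listed pseudogene Hmga2-ps1 had 52.6, 51.8 and 306 normalized counts in +Dox. It had 48.7 and 24.0 in -Dox and 68.5, 83.1 and 5.28 in satellite cells.

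Hmga2 was not alone among high mobility group genes in falling after Dox withdrawal. Of 9 further genes for such proteins, 4 were lower in -Dox and none higher, beside 3.04% of all genes lower, with a median log2 fold change of -0.73. Hmgb2, a chromatin protein of dividing cells, had the largest drop, from 12682 ± 3266 (SD, n = 3) to 2536 ± 76.7 (SD, n = 2) normalized counts (log2 fold change -2.32, standard error 0.31, edgeR adjusted p = 0.00212), and Hmgb3 followed (-1.57, standard error 0.36, edgeR adjusted p = 0.0305). In satellite cells against +Dox 4 were lower and 1 higher, 55.6% called beside 44.9% of all genes, with a median of -0.63. Hmgb3 was lower there as well (-3.27, standard error 0.34, edgeR adjusted p = 9.88e-05). Against -Dox, 2 were higher and 2 lower in satellite cells, 44.4% beside 39% of all genes, with a median of 0.20 beside 0.23. The change of Hmga2 in satellite cells exceeded that of each of the 9. The dividing-cell markers given above moved with these genes, and their part in the result was not tested.

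Igf2bp proteins coat mRNAs and govern their stability, transport and translation. Igf2bp1 (chromosome 11, 95818477 to 95867254, minus strand) had 7146, 6649 and 4562 normalized counts in +Dox and 6848 and 8388 in -Dox, which overlap. The satellite-cell libraries had 1.32, 2.68 and 6.59, from 8 reads in all (exact Poisson 95% interval 3.45 to 15.8, counting error only). Igf2bp1 was 1674-fold lower in satellite cells than in +Dox (log2 fold change -10.71, standard error 0.52, edgeR adjusted p = 3.15e-06) and 2084-fold lower than in -Dox (-11.03, standard error 0.53, edgeR adjusted p = 5.99e-06). Between -Dox and +Dox its log2 fold change was 0.32 (standard error 0.35, edgeR adjusted p = 0.7).

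Igf2bp3 (chromosome 6, 49035220 to 49164953, minus strand) kept a residual level. It had 3950, 3426 and 2460 normalized counts in +Dox, 2548 and 3410 in -Dox and 97.4, 50.9 and 60.7 in satellite cells. The iPax7 groups overlapped, and all satellite-cell libraries lay below them. It was 47.0-fold lower in satellite cells than in +Dox (log2 fold change -5.55, standard error 0.40, edgeR adjusted p = 1.6e-05) and 42.7-fold lower than in -Dox (-5.42, standard error 0.41, edgeR adjusted p = 3.75e-05). The protein-coding gene 2410003K15Rik overlaps Igf2bp3 on the other strand, and the strand setting of the counting was not given in the sources used here.

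Igf2bp2 (chromosome 16, 22059082 to 22163372, minus strand) is the family member known to persist in adult tissues, muscle included. It had 8954, 8826 and 4779 normalized counts in +Dox, 6561 and 7271 in -Dox and 7220, 13731 and 10064 in satellite cells. All 3 groups overlapped. Its log2 fold change was 0.46 in satellite cells against +Dox (standard error 0.32, edgeR adjusted p = 0.269), 0.58 against -Dox (standard error 0.36, edgeR adjusted p = 0.226) and -0.12 in -Dox against +Dox (standard error 0.36, edgeR adjusted p = 0.934).

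The makeup of the family is given by the share of each gene. On the scale of TMM-scaled CPM per kb of exon, the summed level of the 3 genes was 51.6 ± 13.6 (SD, n = 3) for the +Dox libraries, 51.7 ± 6.84 (SD, n = 2) for the -Dox libraries and 31.0 ± 9.57 (SD, n = 3) for the satellite-cell libraries. Igf2bp1, Igf2bp2 and Igf2bp3 supplied 26.1%, 42.7% and 31.2% of that sum in +Dox and 32.2%, 39.9% and 27.9% in -Dox. In satellite cells Igf2bp2 supplied 98.7% ± 0.809 (SD, n = 3), Igf2bp3 1.25% and Igf2bp1 0.0251%. With the longest coding transcript as the length, Igf2bp2 supplied 56.0%, 52.8% and 99.3% in the 3 groups.

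**Figure D3:**
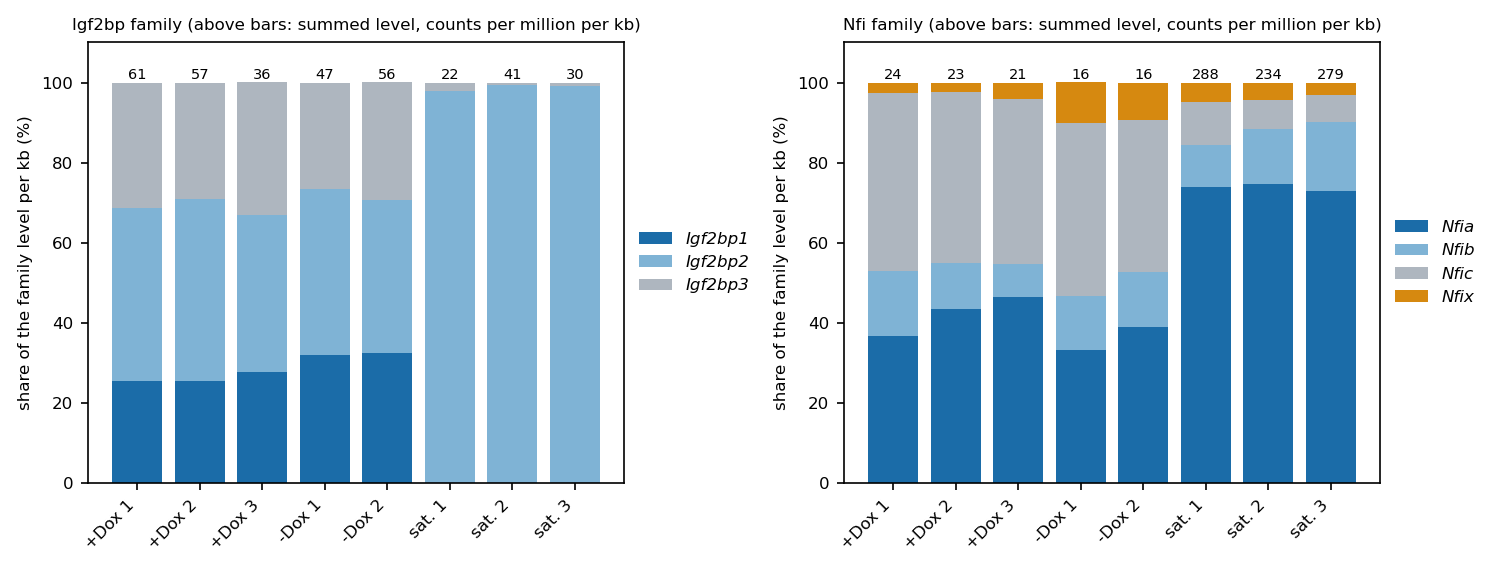
Share (percent) of the summed level per kb of exon that each Igf2bp and each Nfi gene supplied in every library, with the summed level (TMM-scaled CPM per kb) above each bar. On average Igf2bp2 supplied 39.9% and 42.7% in the iPax7 groups and 98.7% in satellite cells, and Nfia 36.1% and 42.1% against 73.9%.

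Transcripts known to be bound by Igf2bp proteins were listed as 14 genes, among them Hmga2 and Lin28b. In -Dox 2 were higher and 2 lower, 28.6% of the list beside 7.7% of all genes. In satellite cells 2 were higher and 5 lower against +Dox, 50% beside 44.9% of all genes, and 3 higher and 7 lower against -Dox, 71.4% beside 39%. Hmga2 is among the lower genes in each comparison, and Lin28b in satellite cells against +Dox. These members are thus counted here again. The median log2 fold change was -0.30, -0.75 and -1.50. The imprinted growth factor Igf2 rose in -Dox from 6375 ± 1626 (SD, n = 3) to 96344 ± 9117 (SD, n = 2) normalized counts (log2 fold change 3.92, standard error 0.40, edgeR adjusted p = 0.000412), and its neighbour H19 rose too (6.05, standard error 0.39, edgeR adjusted p = 4.21e-05). In satellite cells H19 was lower than in -Dox (-5.56, standard error 0.39, edgeR adjusted p = 2.8e-05). Against +Dox, the cyclin Ccnd2 was lower in satellite cells (-3.06, standard error 0.45, edgeR adjusted p = 0.000668) and the growth regulator Myc higher (4.30, standard error 0.23, edgeR adjusted p = 4.89e-06).

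Known let-7 targets outside the 10 genes were called in satellite cells about as often as all genes against +Dox. Of 20, 7 were higher and 3 lower, 50% beside 44.9% of all genes. Against -Dox 7 were higher and 6 lower, 65% beside 39%. The median log2 fold changes were 0.29 and 0.63. Prdm1, a transcriptional repressor, had no read in any iPax7 library and 308.1, 294.9 and 14.5 normalized counts in satellite cells, at least 75.3-fold higher than the limit of 3 reads per library in +Dox (edgeR adjusted p = 0.00686). Irs2, an insulin signalling adaptor, was higher in satellite cells than in +Dox (5.63, standard error 1.15, edgeR adjusted p = 0.00377). Between -Dox and +Dox, 2 of the 20 were lower and none higher, 10% beside 7.7% of all genes, with a median log2 fold change of 0.20. The 2 were Mycn (-5.36, standard error 1.04, edgeR adjusted p = 0.0136) and Myc (-0.89, standard error 0.23, edgeR adjusted p = 0.0477).

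Nfia (chromosome 4, 97439425 to 97868605, plus strand) was the most abundant Nfi gene in satellite cells. It had 4537, 5056 and 5088 normalized counts in +Dox, 2693 and 3313 in -Dox and 110169, 90320 and 105059 in satellite cells, with no overlap between any 2 groups. It was 20.8-fold higher in satellite cells than in +Dox (log2 fold change 4.38, standard error 0.23, edgeR adjusted p = 4.81e-06) and 33.9-fold higher than in -Dox (5.08, standard error 0.29, edgeR adjusted p = 9.59e-06). Its difference between -Dox and +Dox, -0.70 (standard error 0.23), did not pass the test (edgeR adjusted p = 0.104); it did in DESeq2 (adjusted p = 0.0449). Per kb of exon it stood above 79.8% of genes in +Dox and above 98.3% in satellite cells. The protein-coding gene E130114P18Rik overlaps it on the other strand.

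Nfib (chromosome 4, 81936077 to 82351654, minus strand) had 2752, 1854 and 1252 normalized counts in +Dox, 1511 and 1594 in -Dox and 21391, 22460 and 34124 in satellite cells. The iPax7 groups overlapped and the satellite-cell libraries lay above both. It was 13.3-fold higher in satellite cells than in +Dox (log2 fold change 3.73, standard error 0.35, edgeR adjusted p = 6.82e-05) and 16.7-fold higher than in -Dox (4.07, standard error 0.43, edgeR adjusted p = 0.00016). Between -Dox and +Dox the log2 fold change was -0.33 (standard error 0.36, edgeR adjusted p = 0.689).

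Nfix (chromosome 8, 87223775 to 87324243, minus strand) had 228.3, 180.7 and 295.9 normalized counts in +Dox, 559.7 and 533.5 in -Dox and 4880, 3564 and 3026 in satellite cells. No 2 groups overlapped. Satellite cells were 16.3-fold above +Dox (log2 fold change 4.02, standard error 0.35, edgeR adjusted p = 4.05e-05) and 6.99-fold above -Dox (2.81, standard error 0.39, edgeR adjusted p = 0.000554). The difference of 1.22 between -Dox and +Dox (standard error 0.34) missed the threshold (edgeR adjusted p = 0.0624), passed it in DESeq2 (adjusted p = 0.0147), and passed it in edgeR without +Dox library 3 (adjusted p = 0.0481) or without satellite-cell library 1 (0.0451). The protein-coding genes Lyl1 and G430095P16Rik overlap Nfix on the other strand.

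Nfic, the remaining Nfi gene, had 2710 to 3277 normalized counts in +Dox, 1929 and 2087 in -Dox and 5264 to 9456 in satellite cells. It was 2.29-fold higher in satellite cells than in +Dox (log2 fold change 1.19, standard error 0.28, edgeR adjusted p = 0.00739). The 4 Nfi genes together, in TMM-scaled CPM per kb of exon, reached 22.6 ± 1.35 (SD, n = 3) for the +Dox libraries, 16.1 ± 0.516 (SD, n = 2) for the -Dox libraries and 266.6 ± 29.0 (SD, n = 3) for the satellite-cell libraries. Nfia supplied 42.1%, 36.1% and 73.9% of the sum, Nfic 42.8%, 40.5% and 8.22%, Nfib 12.1%, 13.7% and 13.8%, and Nfix 3.02%, 9.78% and 4.12%. The Nfix share was higher in each -Dox library than in any other library. The endothelial, mesenchymal, blood and Schwann cell markers given above were raised in the same satellite-cell libraries, and their part in the Nfi levels was not tested.

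Ordered by level per kb of exon, the members in +Dox ran from Hmga2 (79.0 TMM-scaled CPM per kb) through Igf2bp2 (22.3), Igf2bp3 (16.0), Igf2bp1 (13.4), Nfia (9.45), Nfib (2.76), Nfix (0.675) and Lin28b (0.279) to Hmga1 and Lin28a. Among these neighbours the 3 Igf2bp genes overlapped between libraries, although their order was the same within each +Dox library. Hmga2 stood above all of them in every library, and no further pair of neighbours down to Lin28b overlapped. In -Dox the order ran Hmga2 (32.5), Igf2bp2 (20.5), Igf2bp1 (16.6), Igf2bp3 (14.5), Nfia (5.80), Nfib (2.195) and Nfix (1.57). Igf2bp1 and Igf2bp3 overlapped between the -Dox libraries, with Igf2bp1 higher within each. In satellite cells it ran from Nfia (196.8) through Nfib (36.8), Igf2bp2 (30.7) and Nfix (11.0) to Igf2bp3 (0.339), with the remaining 5 under 0.06. Nfib and Igf2bp2 overlapped there, and Nfia was above both in every library.

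Chromatin at the start sites was described from the deposited peak lists, 1 merged list for each state, so no difference between states could be tested. A start site was counted as marked where a peak lay within 1 kb of it. In +Dox, 9 of the 10 members had an accessible (ATAC-seq) start site, against 66.8% of 19020 genes, 9 had H3K4me3, a mark of active promoters, against 64.1%, and 8 had H3K27Ac, a mark of active promoters and enhancers, against 51.1%. Lin28a had none of the 3 and Lin28b had no H3K27Ac. In -Dox, 6 kept H3K27Ac (48% of all genes had it), without Hmga1 and Nfix. These 2 differences depended on the window. With windows of 2.5 kb Hmga1 was marked in -Dox too. Nfix was marked at 1 of its 5 start sites in +Dox, and not with windows of 0.5 kb. Over the whole gene, H3K27Ac covered 41.5% of Hmga1 in +Dox and 35.8% in -Dox. It covered 11.5% and 16.4% of Nfix, beside 5.02% and 3.47% of the length of all genes. H3K27me3, laid down by Polycomb, marked Lin28a, Lin28b, Nfib and Nfix in +Dox, 4 of 10 against 22.8% of all genes. In -Dox it was listed at Lin28a, Lin28b and Nfib.

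In satellite cells 8 members had an accessible start site, against 62.1% of all genes, and Igf2bp1 and Lin28a had none. Hmga2, with only 10.5 to 18.5 normalized counts, kept a peak of 3.32-fold enrichment over background, against 21.6 in +Dox, and Igf2bp3 had 4.69 against 34.0. These 2 peaks and that of Lin28b (3.52) were not among the stronger 50% of the satellite-cell list. The Igf2bp3 start site was not counted in satellite cells with windows of 0.5 kb, nor where 50% of the smaller interval had to overlap. In +Dox it was counted under both rules. Nfia had 21.9 against 33.1 in +Dox, Nfib 15.8 against 8.87 and Nfix 8.79 against 4.91. Over the whole gene, the highest enrichment of Hmga2 was 37.3 in satellite cells and 28.2 in +Dox. That of Igf2bp3 was 27.9 in satellite cells and 34.0 in +Dox. Fold enrichments depend on the depth of each list and are given side by side only.

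**Figure D4:**
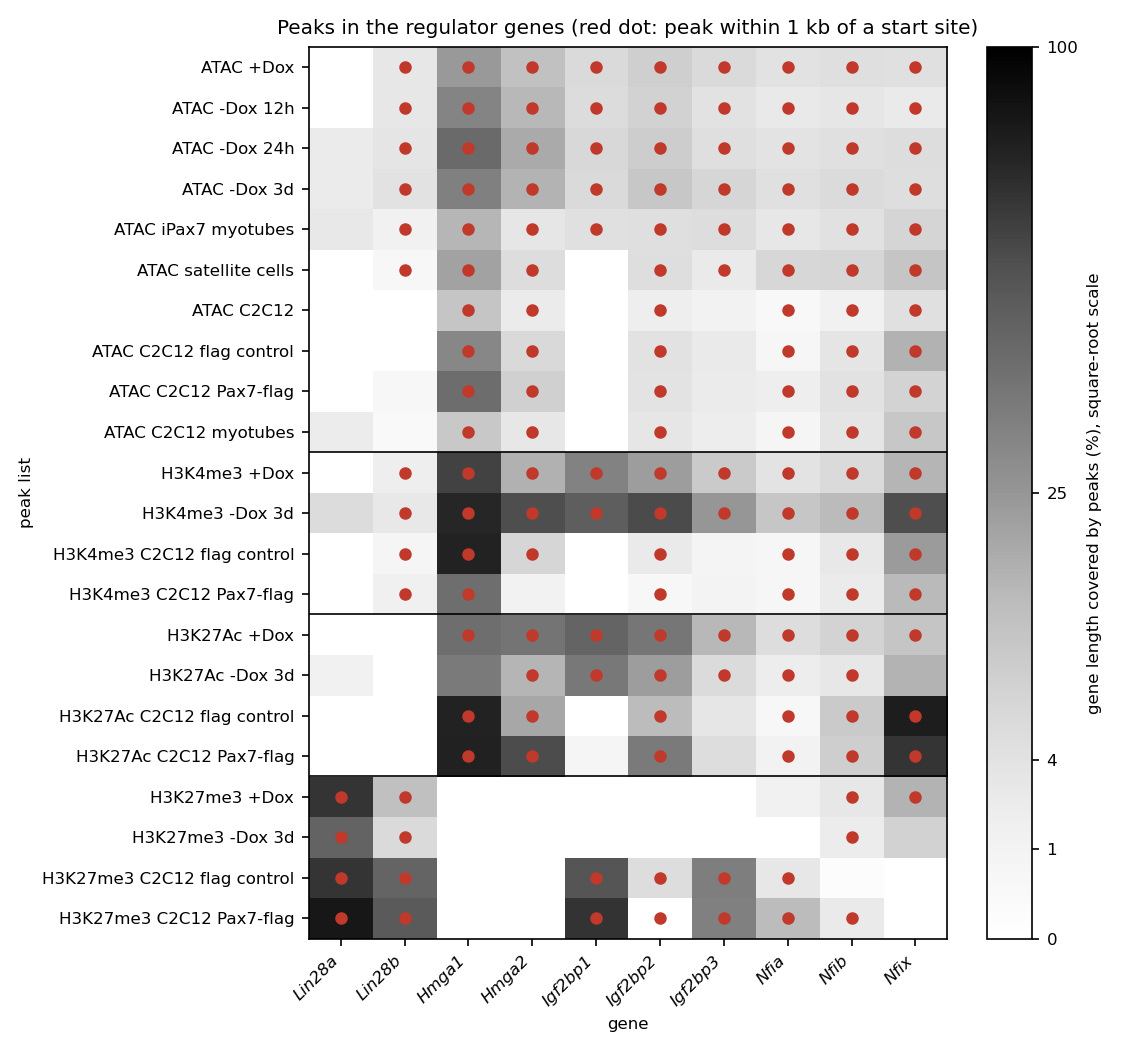
Percent of each gene's length covered by peaks (grey scale, square root) in the ATAC-seq, H3K4me3, H3K27Ac and H3K27me3 lists of each state, with a red dot for a peak within 1 kb of a start site. Igf2bp1 has no accessible region in satellite or C2C12 cells and is covered by H3K27me3 at 54.4% and 69.9% in the C2C12 lines, and Nfia and Nfib are covered more by accessible regions in satellite cells than in +Dox.

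Over the whole gene, Igf2bp1 held 6 accessible regions in +Dox and 6 at 12 hours, 24 hours and 3 days after Dox withdrawal, 4 in iPax7 myotubes, and none in satellite cells or in any of the 4 C2C12 lists. Hmga2 held 28 in +Dox, 37, 44 and 32 at the 3 times after withdrawal, 9 in iPax7 myotubes and 6 in satellite cells. These covered 12.6% of Hmga2 in +Dox and 5.03% in satellite cells, beside 3.55% and 2.39% of the length of all genes. Among the stronger 50% of each list Hmga2 held 10 in +Dox, 5, 9 and 8 after withdrawal and 4 in satellite cells. The numbers after withdrawal were thus not higher than in +Dox there, and the coverage was 6.81% in +Dox and 4.53% in satellite cells, beside 2.51% and 1.68% of all genes. Nfia held 34 accessible regions in +Dox and 58 in satellite cells (4.10% and 6.60% of its length), Nfib 39 and 62 (4.75% and 6.95%) and Nfix 12 and 24 (4.50% and 11.3%). The satellite-cell list covered less of all genes than the +Dox list and more of each of these Nfi genes, also among the stronger 50% of peaks (2.69% and 4.50% of Nfia, 3.03% and 3.93% of Nfib, 1.76% and 4.98% of Nfix).

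The C2C12 lists are set beside those of iPax7 cells. In C2C12 myoblasts without a construct 6 members had an accessible start site, against 47.9% of all genes: Hmga1, Hmga2, Igf2bp2, Nfia, Nfib and Nfix. H3K27me3 lay at the start sites of 6 members in the flag control, against 19.5% of all genes: Lin28a, Lin28b, Igf2bp1, Igf2bp2, Igf2bp3 and Nfia. It covered 54.4% of Igf2bp1, 33.9% of Igf2bp3, 69.2% of Lin28a and 46.2% of Lin28b in the flag control, and 69.9%, 33.1%, 84.9% and 51.4% in the Pax7-flag line. In iPax7 cells it covered none of Igf2bp1, Igf2bp2, Igf2bp3, Hmga1 or Hmga2 with or without Dox. Lin28a was covered in both systems, with 69.1% in +Dox and 46.5% in -Dox.

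In Nfia, accessible regions numbered 5 in the C2C12 flag control and 17 in the Pax7-flag line, and 1 and 8 of its 9 annotated start sites had a peak. Among the stronger 50% of each list the regions numbered 5 and 6, covering 0.607% and 0.725% of the gene. Nfix lay the other way, with 25 accessible regions in the flag control and 15 in the Pax7-flag line, covering 16.7% and 7.48%, and 11 and 4 among the stronger 50%. H3K27me3 regions of Nfia numbered 20 and 104, covering 3.00% and 14.1% of the gene, and H3K4me1 regions, which mark enhancers, 6 and 36, covering 0.712% and 7.10%. Over all genes, accessible regions covered 2.21% and 2.61%, H3K27me3 5.52% and 6.83% and H3K4me1 7.27% and 13.4%. RNA of the C2C12 lines was not analysed here.

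The deposited Pax7 sites number 2455, each found in at least 2 +Dox replicates and in no -Dox replicate. Each was assigned to the gene with the nearest start site, and 9.27% of 19020 genes received at least 1. Among the 10 members, Nfia received 3 and Nfib 2, and the other 8 received none. The sites of Nfia lie 21473 bases upstream of the nearest start site (chr4:97417655-97418250), 447 bases from a start site and overlapping its exon (chr4:97438512-97439444), and in an intron (chr4:97503473-97504035). Both sites of Nfib are intronic (chr4:81950116-81950960 and chr4:82337617-82338615). Within 100 kb of a member's start site, whatever gene was nearest, 8 sites were found, which added 1 near Igf2bp1 (9875 bases upstream, nearest gene Gip), 1 near Lin28a (89807 bases downstream, nearest gene Hmgn2) and 2 at Nfix (1 in an intron, nearest gene Lyl1, and 1 12612 bases upstream, nearest gene Dand5). One of the Nfib sites lies beyond that distance. Hmga2, the member that fell on Dox withdrawal, had no site by either rule.

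**Figure D5:**
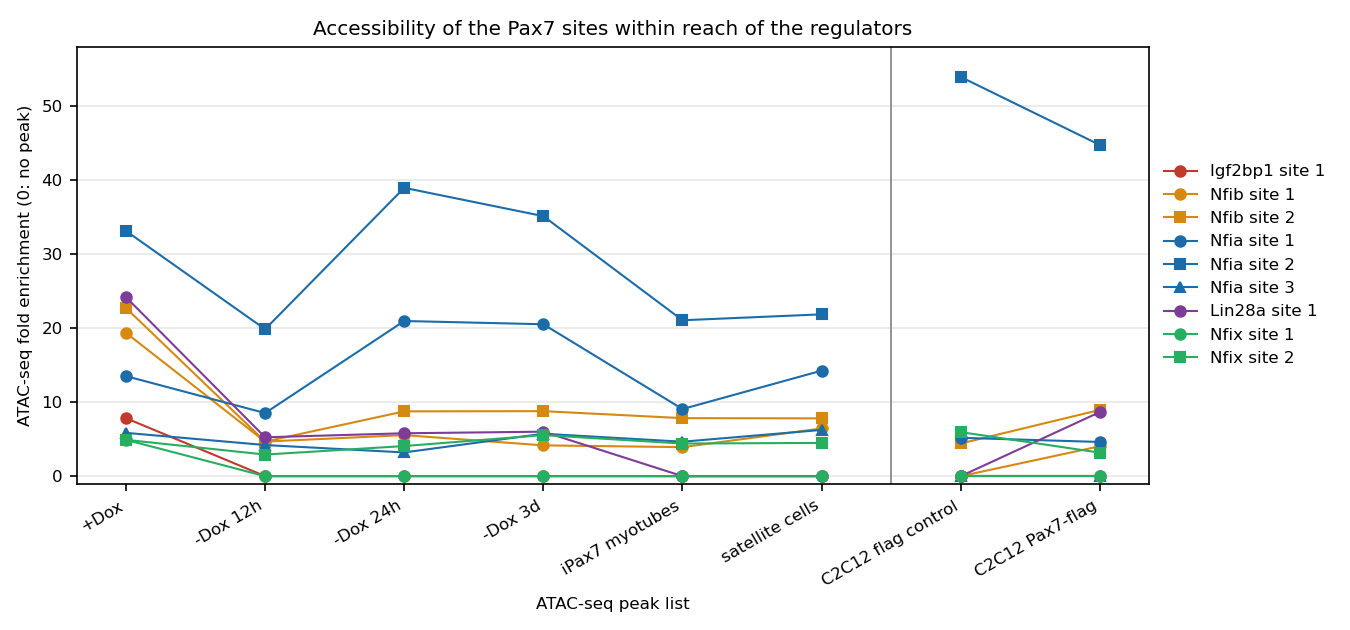
ATAC-seq fold enrichment (linear axis, 0 where the list has no peak) at the 9 Pax7 sites assigned to or within 100 kb of a member, in 6 iPax7 and satellite-cell states and, to the right of the grey line, in 2 C2C12 lines; lines join the values of 1 site. The 5 sites of Nfia and Nfib have a peak in all 6 states, whereas the site near Igf2bp1 and the intronic Nfix site have one in +Dox alone, at 7.83 and 4.91, and that of the Igf2bp1 site overlaps it by less than 50% of the smaller interval.

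The 5 sites of Nfia and Nfib were accessible in +Dox, at all 3 times after Dox withdrawal, in iPax7 myotubes and in satellite cells. Of all 2455 sites, 95.4% were accessible in +Dox, 63.2%, 63.4% and 68% at 12 hours, 24 hours and 3 days, 59.3% in myotubes and 53% in satellite cells. At Nfib the first site had 19.4-fold enrichment in +Dox, 4.67 at 12 hours, 5.55 at 24 hours and 4.16 at 3 days, and the second 22.7, 4.67, 8.76 and 8.79. The Nfia upstream site had 13.5, 8.53, 21.0 and 20.5, the Nfia start site 33.1, 19.9, 39.0 and 35.1, and the intronic Nfia site 5.85, 4.21, 3.21 and 5.73. These values come from separate lists and no change was tested. In satellite cells the 5 sites had 6.44 and 7.81 at Nfib (3.52 at the second where 50% of the smaller interval had to overlap) and 14.3, 21.9 and 6.25 at Nfia.

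Of the 4 sites near the other members, 1 had a peak in all 6 states. The site upstream of Igf2bp1 touched a peak of 7.83-fold enrichment in +Dox and none in any other ATAC-seq list, and it had none in +Dox either where 50% of the smaller interval had to overlap. The intronic Nfix site had 4.91 in +Dox and no peak in the other lists. The site downstream of Lin28a had 24.2 in +Dox, 5.26, 5.80 and 6.01 at the 3 times after withdrawal, and no peak in iPax7 myotubes or satellite cells. The site with a peak in all 6 states was that upstream of Nfix, with 2.92- to 5.55-fold enrichment, and with 50% of the smaller interval overlapping it had none at 12 hours or in satellite cells. In the stable C2C12 lines, the first Nfib site was accessible in the Pax7-flag line (4.04) and not in the flag control, as was the Lin28a site (8.66), and the second Nfib site had 8.95 in the Pax7-flag line and 4.42 in the flag control. Lower values in the Pax7-flag line than in the flag control were listed at the Nfia upstream site (4.62 and 5.18), the Nfia start site (44.8 and 54.0) and the site upstream of Nfix (3.18 and 5.95). The intronic Nfia site, the intronic Nfix site and the Igf2bp1 site were accessible in neither.

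The central 300 bases of 3 of these sites are printed from the plus strand of mm9 because they stand for different members and listings: the first Nfib site and the upstream Nfia site had a peak in all 6 iPax7 and satellite-cell states, and the Igf2bp1 site had one in +Dox alone, by a small overlap. Capitals mark a match to the paired-domain core searched for, GTCACG or its reverse complement CGTGAC.
Nfib, chr4:81950389-81950688: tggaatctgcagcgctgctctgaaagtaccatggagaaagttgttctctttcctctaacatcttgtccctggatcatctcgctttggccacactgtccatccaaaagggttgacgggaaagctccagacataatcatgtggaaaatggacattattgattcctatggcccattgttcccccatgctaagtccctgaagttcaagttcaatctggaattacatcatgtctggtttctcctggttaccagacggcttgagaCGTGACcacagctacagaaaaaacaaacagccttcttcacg
Nfia, chr4:97417803-97418102: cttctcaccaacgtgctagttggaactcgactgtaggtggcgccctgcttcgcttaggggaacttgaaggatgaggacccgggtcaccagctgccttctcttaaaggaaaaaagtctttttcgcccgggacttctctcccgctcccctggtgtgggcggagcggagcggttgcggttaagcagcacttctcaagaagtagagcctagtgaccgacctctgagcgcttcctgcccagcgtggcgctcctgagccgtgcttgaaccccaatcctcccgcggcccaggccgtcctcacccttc
Igf2bp1, chr11:95876980-95877279: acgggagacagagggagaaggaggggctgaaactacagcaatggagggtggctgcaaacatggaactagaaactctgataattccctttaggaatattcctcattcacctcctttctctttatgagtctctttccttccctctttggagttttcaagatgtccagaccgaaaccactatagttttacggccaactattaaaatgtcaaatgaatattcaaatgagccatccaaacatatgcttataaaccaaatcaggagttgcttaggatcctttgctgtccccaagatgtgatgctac

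The first Nfib site was the only one of the 9 with a match, 1 paired-domain core on the minus strand. Over all sites 9.78% of the central 300-base windows held this core on either strand, against 10% of windows of that length at start sites. The homeodomain palindrome TAATNNATTA was in 1.02% of site windows and 0.24% of start-site windows, and in none of the 9. Other forms of either motif were not searched for. The start-site windows were not matched to the Pax7 sites in place or base composition, so these shares do not measure enrichment. The paper, using the motif discovery program MEME, reported paired and homeobox motifs as enriched at its Pax7 sites.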

How the data were processed

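RNA-seq, ATAC-seq and ChIP-seq files of mouse iPax7, satellite and C2C12 cells were used. The authors deposited raw read counts per gene symbol for each RNA-seq library, in HTSeq-count form. The submitters' processing notes name Trimmomatic 0.32, TopHat2 2.0, HTSeq 0.6 and edgeR; the annotation and strand setting were not given in the sources used here. For ATAC-seq the authors merged replicates, aligned to mm9 with Bowtie2 2.2.6, removed duplicates with Picard, shifted reads for the Tn5 cut and deposited MACS2 2.0.10 peaks with a fold enrichment and a −log10 q-value as score. Histone peaks and Pax7 sites were called with Qeseq, and the authors deposited them as positions without a score.

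Counts were tested in edgeR 4.0.16 (R 4.3.3) with TMM, filterByExpr, the quasi-likelihood test, 1 mean per group, 1 spread over the 8 libraries and Benjamini-Hochberg adjustment over 14836 genes. Standard errors are the log2 fold change divided by the root of F. Scripts were tested on simulated data. Gene models are GENCODE M1 on NCBIM37, and levels per kb are CPM at the TMM library sizes over the union of exons. Replicate numbers stand only in the file labels. Same-numbered libraries did not deviate together (r across genes of -0.04 to 0.03), so the fits hold no block. Alternatives used RLE size factors, DESeq2 1.42.0, other filters and call rules, fewer libraries, other promoter windows, overlaps and stronger peaks. The text names all 10 members, Nfic, Pax7 and some genes from each of 6 gene lists. The latter are among the called genes with the largest change and at least 50 normalized counts in the higher group. The members and lists were chosen with earlier results of these data known. One comparison of transcript sequences is not reported here.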

Additional observations from a re-analysis of the deposited data

How the results depend on the processing

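The log2 fold changes of the 8 tested members kept their direction and their side of the threshold in 138 fits and passed the threshold anew in 4 with other normalization, test, filter, libraries, block or call rule. The exceptions were Nfia and Nfix in -Dox against +Dox, which passed it with DESeq2 (-0.67 and 1.25) and in the replicate block fit (-0.68 and 1.43, edgeR adjusted p = 0.0104 and 0.0212). Leaving out 1 library at a time kept 175, lost the threshold in 9, passed it anew in 2 and changed sign in 6. Hmga2, Lin28b and Nfix account for these changes of side. The values that changed sign were uncalled. In -Dox against +Dox, Igf2bp2 ranged from -0.36 to 0.03 (positive without +Dox library 1, 0.0319, or 2, 0.0267), Igf2bp3 from -0.35 to 0.06 (positive without +Dox library 1, 0.0241, or -Dox library 1, 0.0557) and Nfib from -0.57 to 0.01 (0.0066 without +Dox library 1). Lin28b in satellite cells against -Dox ranged from -4.29 to 0.50 (0.496 without -Dox library 1).

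Counts of called genes were less stable. Between -Dox and +Dox 1142 genes were called, against 2129 with DESeq2, 2155 with only the 5 libraries compared, 4017 with the replicate block and 488 to 1444 with 1 library left out. In satellite cells against -Dox, 5780 were called, and 3204 to 6131 with 1 library left out; the lowest count was without -Dox library 1. The cause was not tested. Same-numbered libraries share only a number, and the block changed no other member's call. In the block fit of -Dox against +Dox, +Dox library 3 had no -Dox library of its number. That comparison therefore rests on libraries 1 and 2 of each group.

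Promoter counts moved by over 1.5 times for 3 lists. H3K4me1 in the C2C12 flag control went from 4 members to 7 with windows of 2.5 kb. Among the stronger 50% of peaks, ATAC-seq went from 6 to 2 in C2C12 myoblasts without a construct and from 8 to 5 in satellite cells. Other lists changed by less. Among the stronger 50% of peaks, ATAC-seq went from 9 to 6 in iPax7 myotubes and from 6 to 4 in C2C12 myotubes. H3K4me1 in -Dox went from 9 to 7 with windows of 0.5 kb. The share of a gene covered by accessible regions moved by over 1.5 times in 45 of 100 cases (10 members in 10 lists) among the stronger 50% of peaks, and was within it in 55. With the longest coding transcript as the length, 19 of the 27 family shares and sums moved by more than their SD. Pax7 sites near members numbered 5 by nearest start site and 8 within 100 kb. Histone lists have no score, so the stronger-peak alternative was not run on them. Reads limit Lin28a, Lin28b and Hmga1. Merged peak lists allow no error.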

Other observations

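Embryonic growth genes that decline after birth did not form 1 group in these cells. Of 15, a list that includes Igf2bp3, 4 were higher and 3 lower in -Dox than in +Dox, 2 were higher and 6 lower in satellite cells than in +Dox, and 3 were higher and 6 lower in satellite cells than in -Dox. These are 46.7%, 53.3% and 60% of the list, beside 7.7%, 44.9% and 39% of all tested genes. The median log2 fold changes were -0.33, -0.72 and -0.13, beside 0.00, 0.17 and 0.23 over all tested genes. Meg3, an imprinted noncoding RNA, was higher in -Dox (log2 fold change 6.02, standard error 0.33, edgeR adjusted p = 1.45e-05) and in satellite cells (6.17, standard error 0.32, edgeR adjusted p = 4.64e-06), with 229.6 to 312.3 normalized counts in +Dox, 16497 and 17241 in -Dox and 15267 to 24880 in satellite cells. Dlk1, an imprinted inhibitor of differentiation, had 2597 and 2992 normalized counts in -Dox and at most 36.9 in satellite cells (-7.10, standard error 0.92, edgeR adjusted p = 0.000428). Smoc2, a matrix protein, went against the name of its list: it had 1222, 1619 and 1014 normalized counts in satellite cells and no read in -Dox, at least 464.0-fold above the limit of 3 reads per library (edgeR adjusted p = 0.000215).

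Genes tied to Nfix in fetal muscle, with Nfic, were followed as a list of 11. The list was not split by whether Nfix raises or lowers a gene. In all, 5 were higher and none lower in -Dox than in +Dox, with a median log2 fold change of 2.97, 45.5% of the list beside 7.7% of all genes. Myh8, the perinatal myosin, had 5.18 to 48.3 normalized counts in +Dox and 37920 and 53661 in -Dox (log2 fold change 10.90, standard error 1.31, edgeR adjusted p = 0.00124), and Myh7, the slow myosin, 2484 and 3883 in -Dox with 1 read in all +Dox libraries (edgeR adjusted p = 0.000244). Nfix itself had 559.7 and 533.5 normalized counts in -Dox, and its difference from +Dox missed the threshold (edgeR adjusted p = 0.0624). In satellite cells against +Dox 4 were higher and 3 lower (63.6% of the list beside 44.9% of all genes). Ckm, the muscle creatine kinase, was higher (6.84, standard error 0.84, edgeR adjusted p = 0.000244), and Mstn, the inhibitor of muscle growth, lower (-5.06, standard error 1.14, edgeR adjusted p = 0.00616). Against -Dox, 3 were higher and 6 lower (81.8% beside 39%), led by Myh3, the embryonic myosin, at -12.85 (standard error 1.41, edgeR adjusted p = 0.000185). Differentiated muscle markers summed to 37434 and 38032 CPM in -Dox, 180.3 to 207.0 in +Dox and 211.7 to 348.3 in satellite cells, and their part in these values was not tested.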
